A study of Canis lupus familiaris with 32 samples.

Results

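Splicing factors and RNA helicases were examined as 88 genes with 155 probes, out of 5246 genes and 22176 probes on a canine 2-color cDNA array. They were chosen by a rule on names, made with earlier results of these data known. A gene belonged when its symbol began with SRSF, SRRM, SF3A, SF3B, HNRNP, DDX, DHX, SNRP, PRPF, CLK, SCAF, U2AF, RBM or LUC7L (for DDX, DHX, CLK and RBM followed by a digit), or was SON. The genes fell into 26 DEAD and DEAH box helicases, 17 proteins of the spliceosome core, 15 RBM proteins, 14 hnRNP proteins, 9 SR proteins and 7 SR-related proteins and SR kinases. All 88 had a value on every array, and no filter on low values was applied. Another 14482 probes carry no symbol, so further probes of these genes may be among them.

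Primary osteosarcomas of 32 client-owned dogs, of many breeds and both sexes and untreated before the tumor was removed, had been hybridized on 1 array each. Short survivors (SS, 16 dogs) lived less than 6 months and long survivors (LS, 16 dogs) lived 6 months or longer. Some dogs of each group had chemotherapy after surgery, which was not used here. Every tumor was set against 1 common pool of cRNA from all 32 tumors, so a gene at the level of the pool has a log2 ratio of 0, and its absolute level is not given. The tumor carried Cy5 on 8 arrays and Cy3 on 8 arrays of each survival group. A tumor piece holds malignant, stromal and blood-borne cells, and in such bulk RNA fewer cells of a type and less RNA per cell cannot be told apart.

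Pre-mRNA splicing is carried out by the spliceosome, which assembles on each intron from the small nuclear ribonucleoproteins U1, U2, U4, U5 and U6 and is rearranged by RNA helicases of the DEAD and DEAH box families. SR proteins bind exons and recruit the machinery, and they work once CLK and SRPK kinases have phosphorylated their serine-arginine repeats, while hnRNP proteins often oppose them. Much of this machinery is stored in nuclear speckles, whose scaffolds include SON and SRRM2. Altered splicing is a common feature of tumors of many kinds.

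Tumor was taken as the numerator of all 32 arrays, because the study states that swapped arrays were switched. Across probes, which are no replicates, mean ratios of the Cy5-labeled and the Cy3-labeled tumors had a correlation of -0.66, whereas the lowest correlation between arrays of 1 orientation was 0.0237 for Cy5 and 0.0026 for Cy3. ACTA1, MYL1 and TNNT3, genes of skeletal muscle, were all at 1.68 or higher in tumors 7 and 30 (Cy5) and in tumor 27 (Cy3). TNNC2, a further muscle gene, was at 1.85 and 1.83 in tumors 7 and 30 but at -0.03 in tumor 27, so 3 of these 4 genes had the same sign in both orientations. The SD over the probes of an array ran from 0.474 to 0.762. The dye left a large mark on these genes too: by limma 26 members were higher and 17 lower in the Cy5 than in the Cy3 orientation at an adjusted p under 0.10, beside 33.2% and 25.8% of all genes. Each comparison of SS with LS is therefore given over all tumors and then by orientation, both as a block in the model and in separate fits of Cy5 and Cy3 arrays.

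No splicing factor or helicase passed an adjusted p of 0.10 between SS and LS. Over all 5246 genes limma with Benjamini-Hochberg adjustment called 0% as well. The 8 members at an unadjusted p under 0.05 were all higher in SS: the helicase DDX46, the SR-related proteins SCAF11, SRRM1 and SON, the kinase CLK1, the U2 protein SNRPB2, the SR protein SRSF10 and RBM48. They make up 8 of 88 members, against 5.72% of all genes at this limit in this direction, and 0 of 88 members were lower at this limit, against 2.73% of all genes. Of the 88 differences (SS minus LS), 68 lay above 0 and 20 below, or 77.3% above 0 against 56.6% of all genes, and their median was 0.06 on the log2 scale against 0.02 for all genes. SCAF11 and SRRM1 were picked by the study on these same arrays as higher in SS, so they are not independent evidence of that direction. Without tumors 7, 27 and 30, a choice made after seeing the data, 18 members reached an unadjusted p under 0.05, all higher in SS. In that fit 8.52% of all genes were higher and 3.79% lower at this limit, so the share of all genes was larger there too. Without SS tumor 10, 5 members reached it, all higher in SS, against 5.51% of all genes in this direction.

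**Figure D1:**
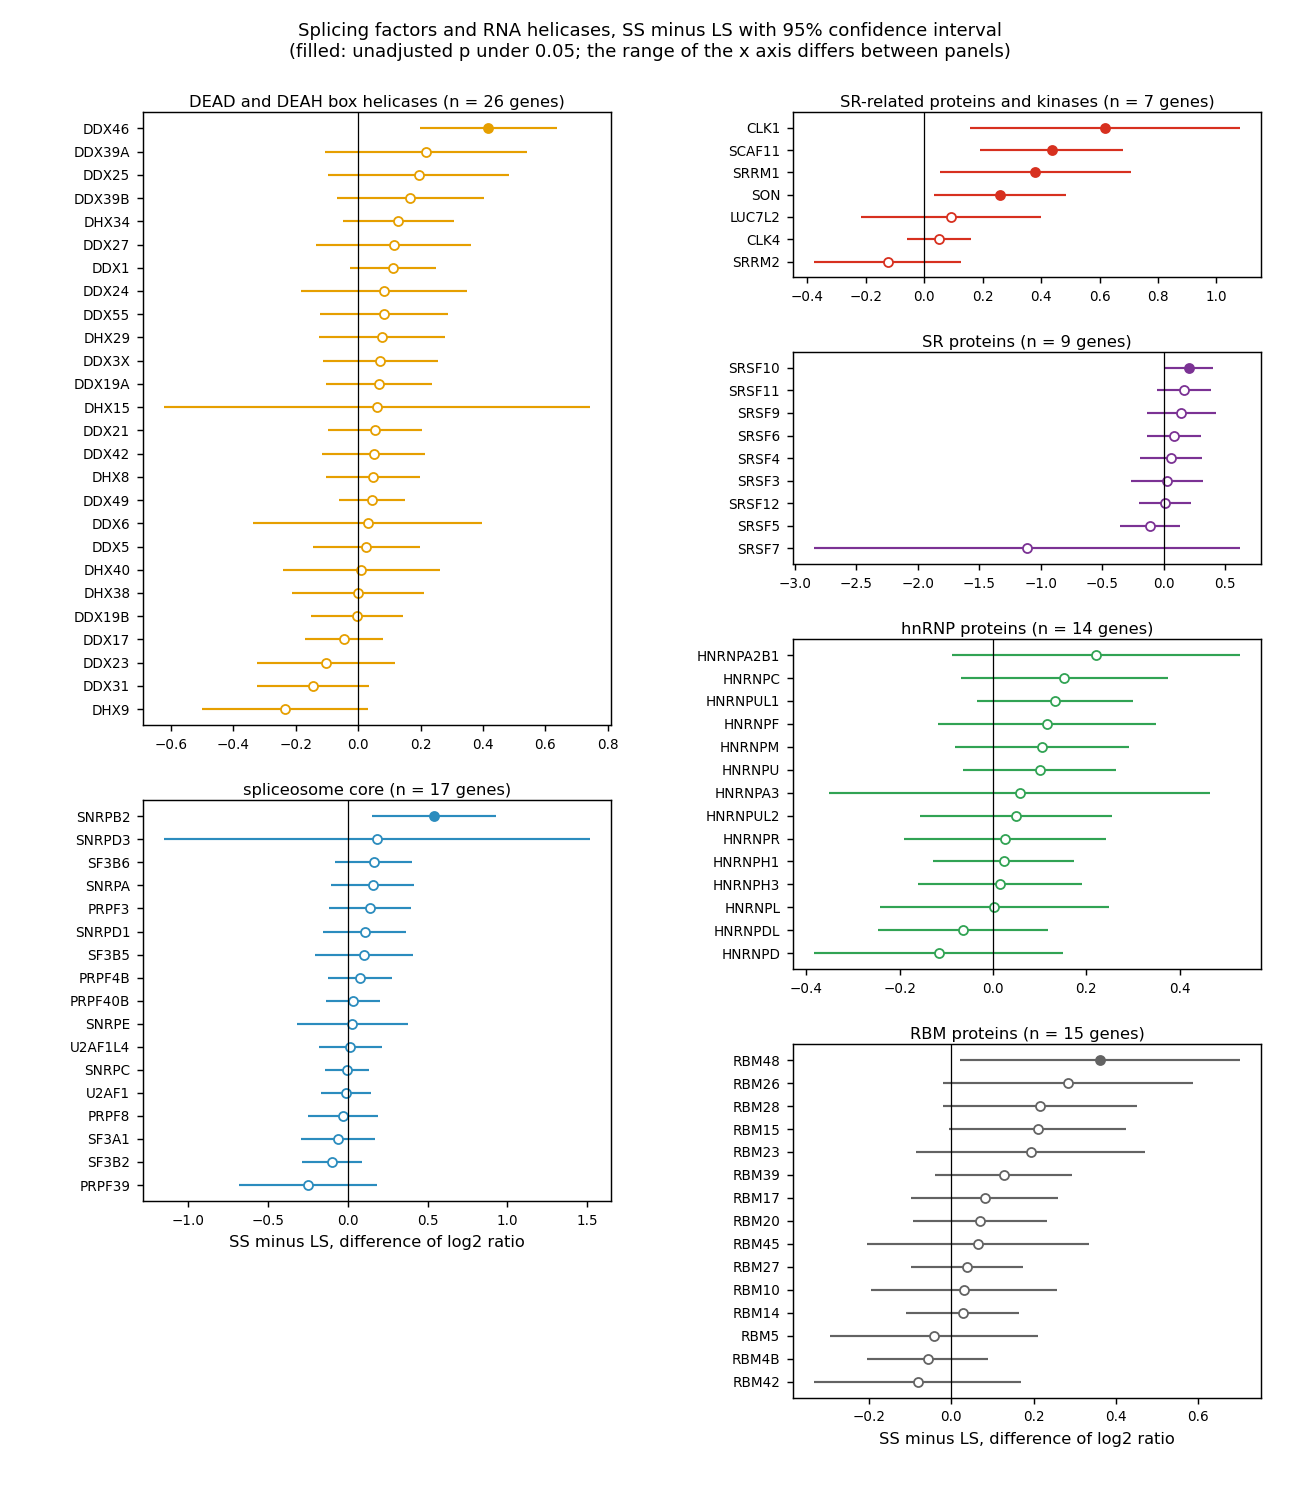
Difference in log2 ratio, SS minus LS (horizontal axis), of the 88 genes (1 line each) with its 95% confidence interval from limma, in panels by role whose horizontal ranges differ. Filled points mark the 8 genes at an unadjusted p under 0.05. All 8 lie to the right of 0, 4 of them among the 7 SR-related proteins and kinases, and SRSF7 and SNRPD3 have the widest intervals of their panels.

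SR-related proteins and SR kinases stood highest of the 6 role groups, with a median difference of 0.26 and 6 of 7 genes above 0. Of these 7 genes 4 were higher at an unadjusted p under 0.05 by limma, against 5.72% of all genes. SCAF11 and SRRM1, among these 4, were picked by the study on these same arrays. The rank of this group is therefore not independent of that choice. CLK1, which phosphorylates SR proteins, had log2 ratios from -1.29 through a median of 0.39 to 1.32 in SS and from -1.40 through -0.34 to 0.16 in LS. The upper part of SS lay above the range of LS, yet the lowest values of both groups were alike. Its mean was 0.18 ± 0.82 in SS and -0.43 ± 0.46 in LS (SD, n = 16 each), a difference of 0.62 (SE 0.23, limma adjusted p = 0.433), and it was the largest positive difference of all 88 genes. CLK4, a kinase of the same family, differed by 0.05 (SE 0.05) and varied little, from -0.09 to 0.23 in SS and from -0.33 to 0.29 in LS.

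SCAF11, an SR-related protein that binds early spliceosome factors, ranged from -0.64 (tumor 1) through a median of 0.18 to 0.89 (tumor 10) in SS. In LS it ranged from -0.52 through -0.27 to 0.12, so the upper part of SS lay clear of LS while the lower part overlapped it. The difference was 0.44 (SE 0.12, limma adjusted p = 0.294). In SS 12 of 16 tumors exceeded the mean of LS. SCAF11 differed by 0.31 in Cy5 and 0.56 in Cy3. With the orientation as a block the limma adjusted p was 0.120. In the fit without a block the limma adjusted p was 0.0811 without tumor 1, the lowest SS tumor of this gene. That was the smallest of 32 runs with 1 tumor left out, and 0.172% of all genes passed in it. Over these runs the difference stayed between 0.39 and 0.49. SON, the speckle scaffold, ranged from -0.94 through 0.02 to 0.73 in SS and from -0.51 through -0.26 to 0.33 in LS. Both extremes were SS tumors, tumor 1 at the bottom and tumor 10 at the top. SON differed by 0.26 (SE 0.11, limma adjusted p = 0.494) and by nearly the same in both orientations, 0.25 in Cy5 and 0.27 in Cy3. SRRM2, the other speckle scaffold, gave -0.13 (SE 0.12), with 0.02 in Cy5 and -0.27 in Cy3.

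SRRM1, a coactivator that bridges SR proteins and the core machinery, depended both on the dye and on the probe. In SS its mean over both probes ran from -0.73 through 0.16 to 0.87, and in LS from -1.03 through -0.16 to 0.42. Within the Cy5 orientation all 8 LS tumors were below -0.32, while SS ran from -0.73 to 0.36, and the gene was 0.68 lower in the Cy5 than in the Cy3 orientation overall. SS minus LS was 0.38 (SE 0.16, limma adjusted p = 0.485) over all tumors, 0.59 in Cy5 and 0.17 in Cy3. Among the Cy5-labeled tumors SRRM1 was the only member called higher (limma adjusted p = 0.0722, background 1.87%), and the difference between the orientations did not pass (limma adjusted p = 0.341). LUC7L2, a protein of the U1 particle, differed by 0.09 (SE 0.15) with probes of opposite sign.

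**Figure D2:**
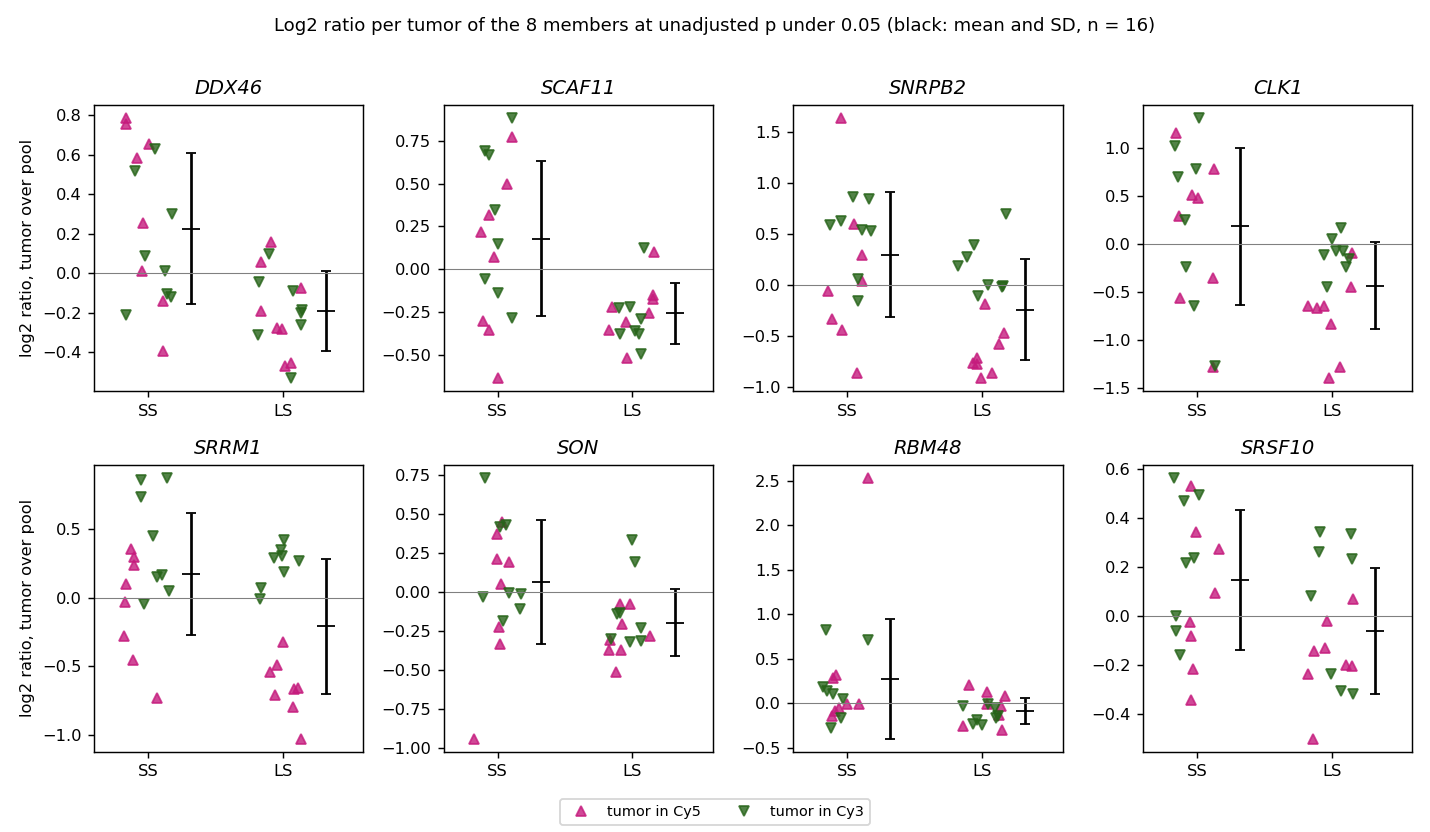
Log2 ratio of tumor over pool (vertical axis) of the 8 genes at an unadjusted p under 0.05, 1 point per tumor, SS and LS side by side, upward triangles for Cy5-labeled and downward triangles for Cy3-labeled tumors. Black bars give the mean and SD of 16 tumors. In each panel the highest tumor is an SS tumor, the groups overlap, and RBM48 has a single SS tumor at 2.53.

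Among the DEAD and DEAH box helicases the median difference was 0.06 and 20 of 26 were above 0. DDX46, the helicase that remodels the U2 particle when the branch site is recognized, led them and had the smallest p of all 88 genes. Its ratios ran from -0.39 (tumor 1) through 0.17 to 0.79 (tumor 8) in SS and from -0.53 (tumor 21) through -0.20 to 0.16 (tumor 30) in LS. The groups overlapped in part: the lower SS values fell inside the LS range, and every value above 0.16 was from SS. DDX46 differed by 0.42 (SE 0.11, 95% confidence interval 0.20 to 0.64, limma adjusted p = 0.235), a fold change of 1.34, and 14 of 16 SS tumors exceeded the mean of LS. The difference was 0.50 in Cy5 and 0.33 in Cy3.

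With the orientation as a block, DDX46 was the 1 member called higher (limma adjusted p = 0.0901), where 0.419% of all genes were called higher and 0.152% lower. At an unadjusted p under 0.05 that fit had 10 members higher, against 8.67% of all genes, and 2 lower, DHX9 and PRPF39, against 4.84%. The call of DDX46 was close to the limit. When each tumor was left out of the blocked fit in turn, its adjusted p ran from 0.0274 to 0.150 and it passed in 13 of 32 runs, and its difference stayed between 0.38 and 0.46. In these runs 0 to 4 members passed, beside 11 to 106 of all genes. It was lost without tumors 3, 4, 5, 8, 10, 11, 12, 15, 17, 18, 19, 21, 24, 25, 27, 28, 29, 31 or 32, each left out singly. Without tumor 1 it was 0.0274, and SCAF11 and SRRM1 passed beside it.

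DHX9, RNA helicase A, was the member with the smallest p among those lower in SS. It ran from -1.40 (tumor 8) through -0.03 to 0.28 in SS and from -0.21 through -0.03 to 0.47 in LS. Medians of both groups were equal to 2 decimals. SS tumors 8 and 6 stood at -1.40 and -1.35, and no other SS tumor was below -0.28. The difference was -0.23 (SE 0.13, limma adjusted p = 0.653). Without tumor 8 it was -0.15, which still holds tumor 6. The 3 DHX9 probes differed by -0.10, -0.30 and -0.30. After centering within survival group and orientation they were nearly unrelated over the tumors by Pearson's r (0.10, 0.02 and -0.06). Spearman's rho was 0.54 for the 2 probes at -0.30, and -0.08 and 0.01 for the other pairs. Which probes carried the low SS values is not given here. DDX31, a nucleolar helicase, gave -0.14 (SE 0.09), and DDX23, which releases U1 from the 5′ splice site, gave -0.10 (SE 0.11) with 0.09 in Cy5 and -0.29 in Cy3. DDX42, DDX49 and DDX21 were among the 5 members that varied least between tumors, with SDs of 0.12, 0.13 and 0.14 within group and orientation, beside CLK4 and PRPF40B, a U1-associated protein. Their differences were 0.05, 0.04 and 0.05.

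In the spliceosome core the median difference was 0.03 and 11 of 17 genes were above 0. SNRPB2, a protein of the U2 particle, ran from -0.87 (tumor 2) through 0.41 to 1.64 (tumor 4) in SS and from -0.92 (tumor 29) through -0.15 to 0.69 (tumor 27) in LS. The ranges overlapped over most of their length, though 13 of 16 SS tumors exceeded the mean of LS. SNRPB2 differed by 0.54 (SE 0.19, limma adjusted p = 0.409), by 0.77 in Cy5 and 0.31 in Cy3. SF3B6, which touches the branch-point adenosine, differed by 0.16 (SE 0.12). PRPF39, a U1 protein, gave -0.25 (SE 0.21), and SF3B2, a subunit of the U2 complex SF3B, gave -0.10 (SE 0.09), -0.30 in Cy5 and 0.11 in Cy3. PRPF39 was 1.13 lower in the Cy5 than in the Cy3 orientation, so the block lowered its SE to 0.08 (limma adjusted p = 0.159). SNRPD3, a protein of the Sm ring, reached from -2.70 to 1.13 in SS and from -5.28 to 4.15 in LS, and its difference of 0.18 (SE 0.65) had opposite signs in Cy5 (-0.98) and Cy3 (1.34).

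SR proteins had a median difference of 0.06, with 7 of 9 above 0. SRSF10, a splicing repressor controlled by phosphorylation, ran from -0.34 through 0.16 to 0.56 in SS and from -0.50 through -0.14 to 0.34 in LS. The groups overlapped in most of their range, 11 of 16 SS tumors being past the mean of LS. It differed by 0.21 (SE 0.10, limma adjusted p = 0.563), with 0.24 in Cy5 and 0.17 in Cy3. SRSF11 differed by 0.17 (SE 0.11) and SRSF5 by -0.11 (SE 0.12). SRSF7, which also acts in mRNA export, had the widest spread of the 88 genes: SS ran from -7.10 (tumor 15) to 5.41 (tumor 8) and LS from -1.19 to 2.47. Its 1 probe was 2.95 higher in the Cy5 than in the Cy3 orientation, and SS minus LS was 0.62 in Cy5 and -2.84 in Cy3, so the pooled -1.11 (SE 0.85) holds opposite signs.

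The RBM proteins had a median difference of 0.07, with 12 of 15 above 0. RBM48, a protein of the minor spliceosome, ran from -0.28 through 0.08 to 2.53 in SS and from -0.30 through -0.09 to 0.21 in LS. One SS tumor, tumor 3, stood far above all others. RBM48 differed by 0.36 (SE 0.17, limma adjusted p = 0.556), and by 0.21 without tumor 3. RBM15, which guides the RNA methylation complex, differed by 0.21 (SE 0.11) and RBM26 by 0.28 (SE 0.15), both higher in both orientations. RBM23, a relative of the splicing coactivator RBM39, was the only member called higher among the Cy3-labeled tumors, at 0.54 (SE 0.14, limma adjusted p = 0.0865, background 1.45%), and was -0.15 among the Cy5-labeled tumors. RBM4B gave -0.06 (SE 0.07).

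The hnRNP proteins had a median difference of 0.05, with 12 of 14 above 0 and none at an unadjusted p under 0.05 by limma. HNRNPA2B1, which packages nascent RNA, ran from -1.01 to 0.64 in SS and from -0.79 to 0.57 in LS, and differed by 0.22 (SE 0.15). HNRNPUL1 differed by 0.13 (SE 0.08). HNRNPD, which binds AU-rich elements of mRNA, gave -0.12 (SE 0.13), and HNRNPA3, the most variable hnRNP gene, gave 0.06 (SE 0.20). The smallest limma adjusted p of this group was 0.683.

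The orientations did not show the same pattern over the 88 genes. Among the Cy5-labeled tumors 49 of 88 differences were above 0 and the median was 0.03. Among the Cy3-labeled tumors 73 were above 0 and the median was 0.12, while all genes had medians of 0.01 and 0.03. Limma at an unadjusted p under 0.05 gave 6 members higher and 3 lower in Cy5, against 7.53% and 4.52% of all genes, and 14 higher and 3 lower in Cy3, against 10.4% and 7.34%. In both orientations 40 members were above 0 (45.5%, all genes 29.4%), 6 were below 0 in both (6.82%, all genes 20.4%) and 42 had opposite signs. By the interaction term of limma 0 members passed, against 3.09% of all genes. At an unadjusted p under 0.05, 3 members had a larger difference in Cy5 and 11 in Cy3, against 7.89% and 6.84% of all genes. CLK1, SNRPB2, DDX46, SRRM1, RBM48, SCAF11, SON and SRSF10 were all above 0 in both.

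**Figure D3:**
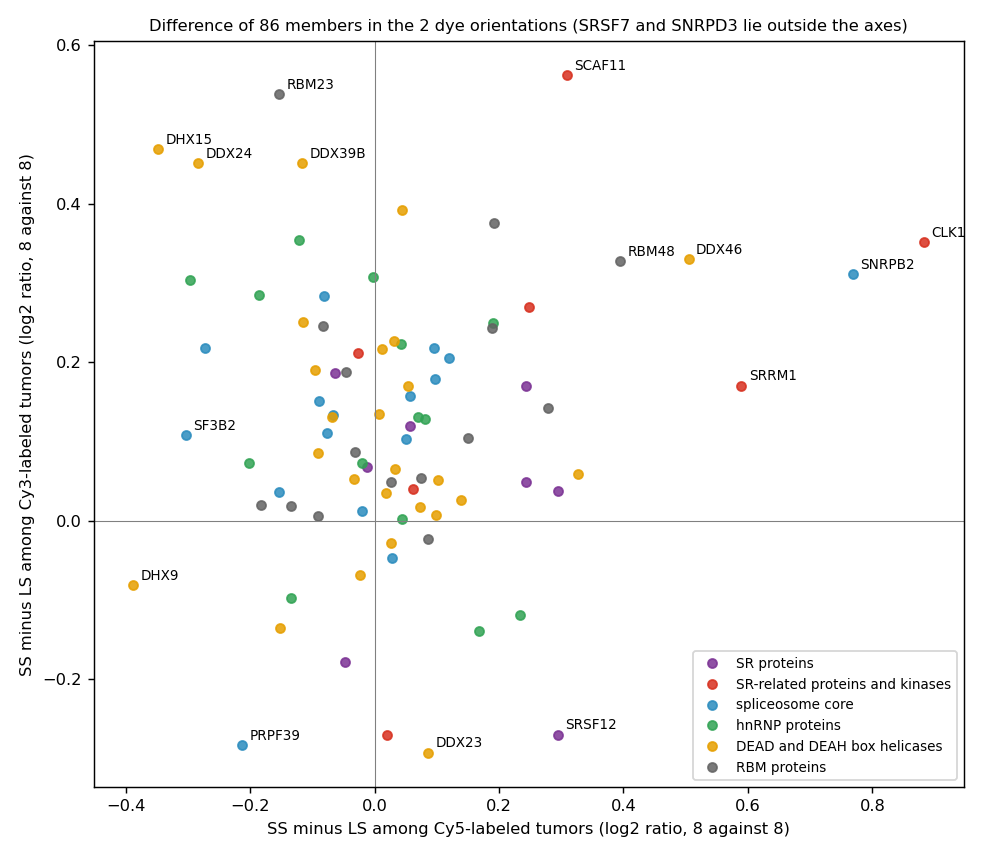
SS minus LS in log2 ratio among the Cy5-labeled tumors (horizontal axis) against the same among Cy3-labeled ones (vertical axis), 1 point per gene, colored by role, for 86 genes. SRSF7 (0.62 and -2.84) and SNRPD3 (-0.98 and 1.34) lie outside the axes. More points lie above the horizontal line (73 of all 88 genes) than to the right of the vertical line (49 of all 88 genes).

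Genes with several probes gave a check within the array. Of the 88 genes 46 had 1 probe and 42 had several, forming 108 pairs of probes. After centering within survival group and orientation, the correlation of such pairs over the tumors had a median of 0.54 and ran from -0.39 to 0.94. At the level of probes 14 of 155 had an unadjusted p under 0.05 higher in SS, against 3.63% of all probes, and 0 lower, against 3.5%. None of the 155 passed an adjusted p of 0.10 by limma. The difference itself differed between the orientations (interaction term of limma, adjusted p under 0.10) at 5 probes with a larger value in Cy5, against 8.88% of all probes, and at 9 with a larger value in Cy3, against 1.87%. Of all 22176 probes 14482 carry no symbol, whereas each of the 155 carries one, so these shares come from an unlike set. Averaged by gene, 5.72% of the 5246 genes with a symbol were higher and 2.73% lower in SS at an unadjusted p under 0.05. By the interaction term at an adjusted p under 0.10 their shares were 2.25% and 0.839%. SON had 5 probes, which differed by 0.42, 0.40, 0.30, 0.12 and 0.05. The first and the second followed each other closely (r = 0.92), and the first 3 were at an unadjusted p under 0.05. The 4 probes of SRSF10 gave 0.28, 0.19, 0.19 and 0.16, and they correlated at 0.51 to 0.85.

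For 4 genes the probes disagreed, meaning that they were over 0.5 apart or had opposite signs with at least 1 probe at an unadjusted p under 0.05. SRRM1 gave 0.72 (SE 0.22) at its first probe and 0.04 (SE 0.15) at its second, and these were nearly unrelated over the tumors (r = 0.06). At the first probe SS ran from -1.20 through 0.28 to 1.36 and LS from -1.24 through -0.36 to 0.19, and among the Cy5-labeled tumors that probe differed by 1.03 (limma adjusted p = 0.034). LUC7L2 gave 0.40 and -0.21 (r = 0.07), DDX42, a helicase bound to SF3B, 0.25 and -0.15 (r = -0.32), and DHX15, which takes spent spliceosomes apart, 0.20 and -0.08 (r = 0.05). The second DHX15 probe ran from -2.85 to 3.65 in SS and from -3.70 to 3.27 in LS, far wider than the first, which stayed between -0.30 and 0.72 in all tumors. Which transcripts the disagreeing probes detect is not known here, so the averages of these 4 genes mix unlike readings.

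**Figure D4:**
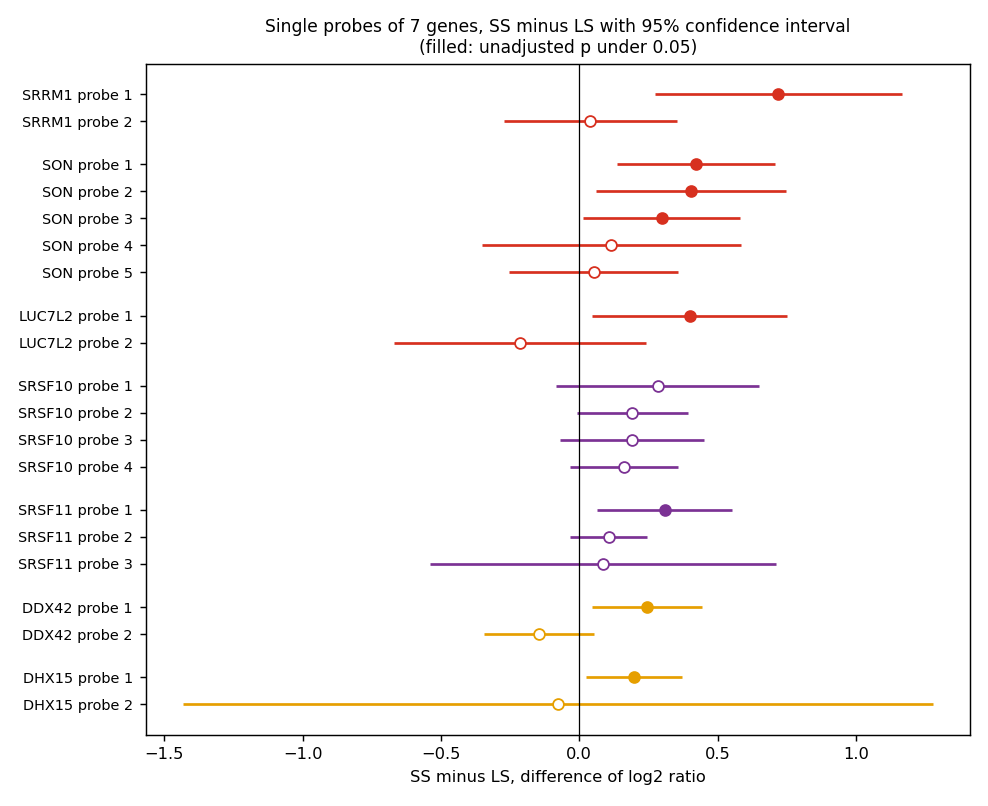
SS minus LS in log2 ratio (horizontal axis) with its 95% confidence interval from limma for each probe of 7 genes, numbered from the highest difference, filled where the unadjusted p is under 0.05. The 4 SRSF10 probes lie close together (0.16 to 0.28), whereas the SRRM1 probes lie at 0.72 and 0.04 and those of LUC7L2, DDX42 and DHX15 on both sides of 0.

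The 8 leading genes were chosen on these same arrays, and the permutation p below takes no account of that choice. Of them 5 were picked by their correlation over the 32 tumors, so that all 10 pairs among these 5 were correlated follows from the pick. Within LS alone the median r of the 10 pairs was 0.10. For the 8 genes at an unadjusted p under 0.05, r and rho were computed for all 28 pairs over the 32 tumors. Each gene was first centered within survival group and orientation, which removes the difference between SS and LS. This step was added after seeing the data. Of the 28 pairs 23 had an r above 0, and r ran from -0.30 to 0.77. By Pearson's r 12 of 28 pairs and by Spearman's rho 13, those 12 and the pair of DDX46 and SNRPB2, passed an adjusted p of 0.05 (permutation test within group and orientation, 100000 resamples, two-sided, adjusted over the 28 pairs). All 10 pairs among DDX46, SCAF11, SRRM1, SON and CLK1 were among them, with r from 0.52 to 0.77, rho from 0.49 to 0.75 and adjusted permutation p from 0.00112 to 0.0348 for r and from 8.4e-04 to 0.0388 for rho. The closest pair was DDX46 and SON (r = 0.77, rho = 0.75, permutation p = 4e-05 and 3e-05). Without the 2 tumors farthest from the median of the first gene, r of the 10 pairs was 0.46 to 0.70. In its pairs SRRM1 is the mean of 2 probes that were nearly unrelated over the tumors (r = 0.06). Among all 3828 pairs of members the median r was 0.07 and the 95th percentile 0.51, and among all gene pairs these were 0.00 and 0.40.

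Those 10 correlations were larger within SS. There they ran from 0.60 to 0.92 and within LS from -0.39 to 0.50, with a median of 0.10, and that difference was not tested. By orientation they ran from 0.55 to 0.83 in Cy5 and from 0.41 to 0.90 in Cy3, which is a description, since the 10 pairs were picked by their correlation over the same arrays. SS tumors 4, 10, 11 and 12 were among the 7 highest of all 32 tumors for each of the 5 genes, and SS tumor 1 was the lowest of all for SCAF11 and SON. The values of a tumor share 1 array, so what is common to an array enters these correlations. The 5 genes were also more variable in SS than in LS, by a factor of 1.85 for DDX46 to 2.59 for CLK1 in SD. A spread wider in SS by any factor was common, in 60 of 88 members (68.2%) and 66.9% of all genes. The median factor was 1.16 for the members and 1.17 for all genes. A factor over 2 was found in 10 of 88 members (11.4%), CLK1, SCAF11 and SRRM1 among them, and in 11.2% of all genes. SNRPB2 followed CLK1 (r = 0.49) and SRSF10 (r = 0.49), while RBM48 correlated with none of the others at an adjusted p of 0.05.

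**Figure D5:**
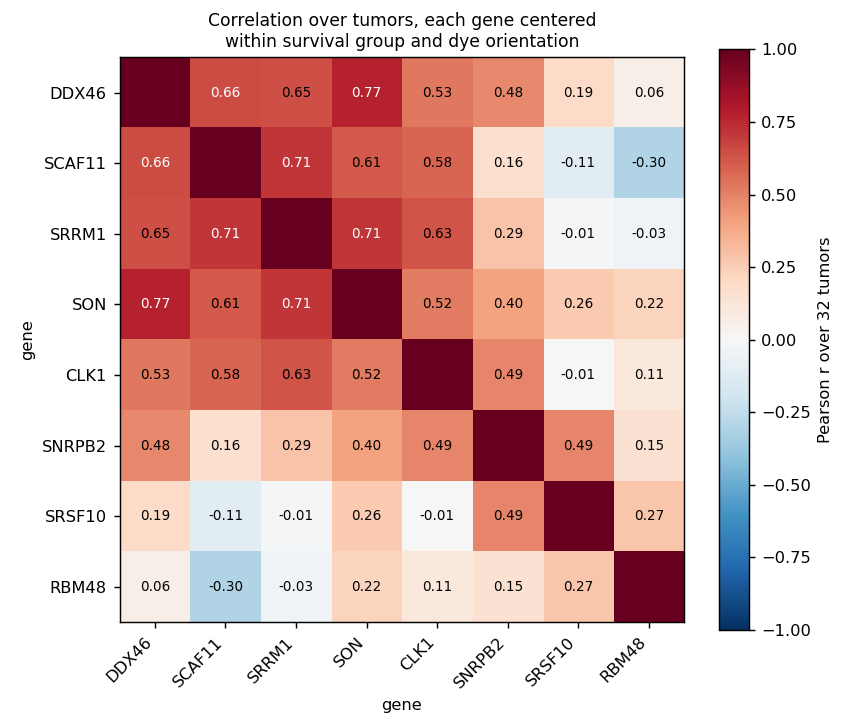
Pearson's r over 32 tumors for each pair of the 8 genes at an unadjusted p under 0.05, both axes listing the genes, after centering within survival group and dye orientation, with color from -1 (blue) to 1 (red). DDX46, SCAF11, SRRM1, SON and CLK1, picked by their correlation and placed side by side, have r of 0.52 to 0.77. RBM48 stays between -0.30 and 0.27.

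Other genes of the splicing pathway, listed by function and outside the naming rule, had a like median difference. Of 131 such genes 77 had a probe, with a median of 0.06, and 0 passed without the block by limma. At an unadjusted p under 0.05, 11 of 77 were higher and 2 lower, beside 5.72% and 2.73% of all genes. CWC22, which loads the exon junction complex, was 0.37 higher in SS (SE 0.12) and passed with the orientation as a block (limma adjusted p = 0.0526), with 0.24 in Cy5 and 0.50 in Cy3. BCAS2, a subunit of the PRP19 complex, differed by 0.39 (SE 0.12) with 14 of 16 SS tumors past the mean of LS, and SREK1IP1 by 0.26 (SE 0.09) with 15 of 16. BUD31 gave 0.27 over 5 probes, GEMIN6, of the complex that assembles snRNPs, 0.23, TARDBP 0.22 and SNW1, of the active spliceosome, 0.18. CIRBP, a cold-inducible RNA-binding protein, gave -0.49 (SE 0.16, limma adjusted p = 0.373), -0.41 in Cy5 and -0.58 in Cy3, with 1 of 16 SS tumors past the mean of LS.

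In the separate fits of the orientations 4 of the 77 genes passed a limma adjusted p of 0.10 in Cy5 and 4 in Cy3, all higher in SS, beside 1.87% and 1.45% of all genes called higher. No gene was in both sets, but how many of all genes passed in both was not counted. The lack of overlap is therefore no result about these genes, and those not named above were chosen after their values were seen. In Cy5 these were PPIG, a cyclophilin with an SR domain, with 0.79 (limma adjusted p = 0.00103, 0.26 in Cy3), SYNCRIP, an hnRNP protein, with 0.75 (limma adjusted p = 0.00756, 0.20 in Cy3), ZMAT2 with 0.68 (-0.39 in Cy3) and SREK1IP1 with 0.36 (0.17 in Cy3). In Cy3 they were PUF60, which helps U2 binding, with 0.52 (-0.37 in Cy5), EIF4A3, the helicase of the exon junction complex, with 0.42 (-0.40 in Cy5), CWC22 and BCAS2, the last with 0.46 (0.31 in Cy5). By the interaction term 4 of the 77 genes passed, against 3.09% of all genes. EIF4A3 (limma adjusted p = 0.00999) and PUF60 (0.0251) had the larger difference in Cy3, and ZMAT2 (0.0848) and UPF3B (0.0569) in Cy5.

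Marker genes of other cells were measured in part, and by limma no marker gene passed an adjusted p of 0.10. The median SS minus LS was -0.18 for 5 of 11 osteoblast genes, -0.31 for 2 of 6 chondrocyte genes, 0.17 for 8 of 13 leukocyte genes, -0.14 for 3 of 5 endothelial genes and 0.30 for 1 of 8 proliferation genes. The sign differed between the orientations for 3 of these lists. The osteoblast median was 0.34 in Cy5 and -0.47 in Cy3, the chondrocyte median 0.24 and -0.87, and the endothelial median -0.38 and 0.12. The leukocyte median was 0.19 in Cy5 and 0.07 in Cy3, and the proliferation gene gave 0.09 and 0.50. For 8 of 10 skeletal muscle genes the median was -0.24, with -0.06 in Cy5 and -0.34 in Cy3, and their mean ratio ran from -0.68 to 1.29 in SS and from -0.73 to 1.56 in LS. Tumors 7, 27 and 30 were the 3 highest in ACTA1 and TNNT3, and without them 1 of the 88 splicing factors and helicases, DDX46, passed (limma adjusted p = 0.0913), beside 0.953% of all genes called higher. The part of the other cell types in these differences was not tested.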

How the data were processed

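Genes and gene lists were chosen with earlier results of these data known. Per the methods, the authors hybridized labeled cRNA, applied Lowess within print tips, took logarithms and then switched the dye-swapped arrays. The result, as deposited, is 1 log2 ratio per probe and array. The base of the logarithm is not given in the sources used here and was assumed from the values to be that of log2, and no depth exists for arrays, whose number limits the precision. Image analysis software is not given in the sources used here. Groups and dyes came from the labels. The table had 5 missing values, 0 of them among the 155 probes studied. Symbols came from the platform annotation, and 82 of the gene identifiers matched a current gene table, with 0 symbols changed, while 7 did not.

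Probes of a symbol were averaged per array. SS and LS were compared by the linear models of limma 3.58.1 (lmFit, then eBayes) under R 4.3.3. Tests were two-sided, and p was adjusted by Benjamini-Hochberg over 5246 genes or 22176 probes at a threshold of 0.10, the false discovery rate the authors used. Single tumors are the replicates, 1 array each. Orientation was added as a block, as an interaction and by separate fits. Permutations ran in NumPy 2.4.6 under Python 3.11.15. The fits were tested on simulated data. Named genes are those past the threshold in any fit, the 10 higher and 10 lower with the smallest p, 2 per role, the 5 most and 5 least variable, SRRM1 and SCAF11, those with disagreeing probes, and 8 other splicing genes. Genes named only in the closing section or on a plot were chosen after their values were seen. Alternatives covered orientation, choice of probe, scaling, array weights and tumors left out.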

Additional observations from a re-analysis of the deposited data

Results flagged for a closer look

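Single tumors that stood far from the other 7 of their survival group and orientation were searched for 34 named genes, 136 sets of 8 tumors, and 13 sets held one. The limit used gives about 1 in 20 for independent normal values. The sets share tumors and the genes were partly chosen by these values, so the count cannot be tested against that rate. The largest was RBM48 in SS tumor 3 at 2.53, with the next tumor of its set at 0.32. SS tumor 2 stood at 1.80 for DHX15. SS tumor 4 stood apart for 3 genes, at 0.80 for RBM15, 0.88 for SRSF11 and -0.85 for RBM23. SS tumor 1 stood at -0.91 for LUC7L2 and -0.30 for PRPF40B. Among LS tumors, tumor 17 stood at 1.13 for LUC7L2, tumor 20 at -0.29 for CLK4, tumor 23 at 0.12 for SCAF11, tumor 24 at 0.27 for SF3B2, tumor 26 at 0.32 for HNRNPUL1 and tumor 30 at 0.21 for RBM26.

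At single probes the difference between SS and LS itself differed between the dye orientations for 14 of the 155 probes by the interaction term of limma (adjusted p under 0.10), 5 with a larger SS minus LS in Cy5 and 9 in Cy3. Over all 22176 probes, of which 14482 carry no symbol, these shares were 8.88% and 1.87%. Averaged by gene, they were 2.25% and 0.839% of the 5246 genes with a symbol. The difference of the differences, Cy5 minus Cy3, was -0.81 at the first DDX1 probe and 0.58 at the second, so probes of 1 gene went opposite ways. It was positive for DDX21 (0.40), DDX23 (0.38), SRSF12 (0.57) and SRSF7 (3.46). Negative values were found for DDX24 (-0.73), DDX39B (-0.57), DDX3X (-0.42), HNRNPC (-0.56), HNRNPF (-0.66), HNRNPL (-0.60), RBM23 (-0.69) and SF3B2 (-0.53). Averaged over the probes of a gene, 0 members passed by the interaction term of limma, with 14 at an unadjusted p under 0.05, and the smallest adjusted p was 0.105, for DDX24 and SRSF12.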

How the results depend on the processing

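The number of members past an adjusted p of 0.10 was 0 by limma over all tumors (0% of all genes). It was 1 with the dye orientation as a block (DDX46, 0.572% of all genes) and 2 with array quality weights (DDX46 and SCAF11, 0.21%). Among the Cy5-labeled tumors it was 1 (SRRM1, 2.12%) and among the Cy3-labeled tumors 1 (RBM23, 2.1%). Without tumors 7, 27 and 30 it was 1 (DDX46, 1.12%). With each tumor left out it ran from 0 to 2, and the 2 arose without SS tumor 1 (9 of all genes). In the blocked fit with each tumor left out it ran from 0 to 4, and the 4, DDX46, PRPF39, SCAF11 and SNRPB2, arose without SS tumor 7 (106 of all genes). The number at an unadjusted p under 0.05, 8 over all tumors (8.44% of all genes), was 17 among the Cy3-labeled tumors (17.7% of all genes), 18 without tumors 7, 27 and 30 (12.3%), and 5 to 12 with each tumor left out (7.32% to 11.2%). In the blocked fit with each tumor left out it ran from 9 to 17 (11.3% to 16.9%). Their median difference stayed above 0 throughout, at 0.05 to 0.07 with each tumor left out. Directions turned for genes with small or unstable differences. Among the Cy5-labeled tumors alone these were DDX23 (0.0864), DHX15 (-0.35), LUC7L2 (-0.0272), PRPF40B (-0.0675), RBM23 (-0.15), SNRPD3 (-0.98), SRRM2 (0.0203) and SRSF7 (0.62). Among the Cy3-labeled tumors they were HNRNPA3 (-0.12), RBM4B (0.0183) and SF3B2 (0.11). Taking the probe with the largest SD turned DHX15 (-0.0768) and LUC7L2 (-0.21), equal spread of the arrays turned HNRNPA3 (-0.0026), and leaving out tumors 7, 27 and 30 turned DHX15 (-0.0332). With single tumors left out DHX15 ran from -0.0615 to 0.17, HNRNPA3 from -0.0258 to 0.13 and SNRPD3 from -0.13 to 0.50. The cause was not tested. No paired analysis was possible because the numbers of the labels name single tumors and pair none. The background of the arrays was not used here, so dim probes could not be set apart.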
